A study of Mus musculus with 289 samples.

Results

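Single cortical astrocytes that carried a guide RNA (gRNA) against Sox9 were compared with astrocytes that carried no gRNA, both from the fifth sequencing batch of the series. The cells were chosen by their labels alone. Of 289 labelled samples in the whole series and 79 libraries in batch 5, 21 were Sox9 gRNA cells and 23 were no gRNA cells. A pair of the no gRNA libraries were near copies of each other and were counted as 1 cell, which left 22.

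Sox9 gRNA cells were drawn from the cerebral cortex of adult transgenic mice that express the Cas9 nuclease, 21 days after injection of Mok-LV, a lentivirus made to act in astrocytes, with a gRNA against Sox9. No gRNA cells are labelled as adult with no day. The sources used here do not say whether their mice expressed Cas9 or were injected, so the gRNA, the injection and the virus cannot be told apart. The labels name no animal, strain or sex for either group. No gRNA cells carry titles of 2 series, AG (11 cells) and 2AG (11 cells after the near copies were counted once), and each result was also read against each title series. Batch 5 further held 30 Trps1 gRNA cells of day 21 and 5 in-slice controls of day 21, which are libraries labelled as holding no cell. Cells were sucked into an electrophysiology pipette and made into Smart-seq2 libraries, which have no molecular identifiers.

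Sox9 is an HMG-box transcription factor that drives glial fate in development and stays on in adult astrocytes, where it marks the nuclei of nearly all of them outside neurogenic regions. Astrocytes make much of the brain's cholesterol and fatty acid, hand lipid to neurons on apolipoprotein E, and clear glutamate and potassium. Microglia, the resident macrophages of the brain, make complement C1q, cathepsin S and antigen presentation proteins, and respond to injury and infection close to astrocytes.

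Each group was treated as 1 pool, because cells are not replicates and no animal is named. The differences below therefore have no test and no p-value, and describe these libraries. Levels are pooled CPM, a gene's reads scaled to the total reads in genes, with exact Poisson intervals, and shares of cells with a read carry exact binomial (Clopper-Pearson) intervals, both at 95%. These intervals cover counting error only. Pools held 17083453 reads in genes from Sox9 gRNA cells and 16753624 from no gRNA cells. Single cells held 216448 to 1141634 reads in the Sox9 gRNA group and 109811 to 979318 in the no gRNA group. Thinned to 100000 reads each, Sox9 gRNA cells showed reads of 786 to 8668 genes (median 3045) and no gRNA cells of 766 to 7003 (median 3524). Reads of the DsRed reporter were present in all 21 Sox9 gRNA cells (222 to 9868 reads) and numbered 0 to 2 in each no gRNA cell. GFP reads went the other way. They were present in 12 of 21 Sox9 gRNA cells (median 9, at most 328) and in 18 of 22 no gRNA cells (median 81.5, at most 351). The origin of the GFP reads was not tested.

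The labelled cell type was checked against 40 astrocyte identity genes, which summed to a median of 37586 CPM per cell in Sox9 gRNA cells (10680 to 129856) and 56858 CPM in no gRNA cells (7372 to 107618). The ranges overlapped over most of their length. Sox9 gRNA replicate 6 stood apart, with 66974 CPM of oligodendrocyte genes against 10680 CPM of identity genes. No gRNA replicates 3, 5 and 15 also held little identity RNA, at 10514, 7372 and 13115 CPM. Where leaving out these 4 libraries changed a count of calls by more than 1.5 times or ended the call of a named gene, the value without them is given.

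A gene was called by a rule of size, not a test: at least 20 CPM and a read in at least 40% of cells in the higher pool, a share of cells differing by at least 20 percentage points, and a log2 ratio of pooled CPM + 5 of at least 1 either way, with all cells and again without the highest cell of each pool. The log2 ratio is Sox9 gRNA over no gRNA throughout. Of 11094 genes with a mean of at least 5 CPM over the pools, 241 (2.17%) were called higher and 516 (4.65%) lower in Sox9 gRNA cells, and the median log2 ratio was 0.09. The split depended on the title series. Against AG cells alone, 824 genes were called higher (7.94%) and 219 lower (2.11%) of 10379, and the median log2 ratio over all genes was 0.61. Against 2AG cells alone, 123 were called higher (1.09%) and 1239 lower (11%) of 11280, with a median of -0.09. Calls that held against all cells and against each title series numbered 102 higher and 98 lower. Without the 4 libraries low in astrocyte RNA, 199 genes were called higher (1.79%) and 693 lower (6.23%) of 11120.

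Sox9 itself was read in most cells of both groups and was not called. Sox9 (ENSMUSG00000000567, GRCm38 chromosome 11, 112782224 to 112787760, plus strand) stood at 0, 163 and 784 CPM in the lowest, median and highest Sox9 gRNA cell, and at 0, 239 and 1074 CPM in no gRNA cells. The groups overlapped, with 3 no gRNA cells above the highest Sox9 gRNA cell. Pooled, Sox9 held 233 CPM (226 to 240.3) with its gRNA and 307 CPM (298 to 315) without, a log2 ratio of -0.39 that did not meet the rule. It had a read in 18 of 21 Sox9 gRNA cells (85.7%, 63.7% to 97.0%) and in 19 of 22 no gRNA cells (86.4%, 65.1% to 97.1%). The log2 ratio was -0.15 against AG cells and -0.58 against 2AG cells. A count of reads per gene does not show whether Cas9 had cut the gene, so transcript level checks the labels only in part. The 5 in-slice controls held no Sox9 read.

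Trps1, a zinc-finger GATA-type repressor that this gRNA does not address, was called lower, at 39.7 CPM in Sox9 gRNA cells (7 of 21 cells) against 96.5 CPM in no gRNA cells (17 of 22 cells), a log2 ratio of -1.18. The call rested on AG cells. Trps1 held 164 CPM in AG cells and 35.3 CPM in 2AG cells, and the log2 ratio was -1.92 against AG cells alone but turned to 0.15 against 2AG cells alone. Without no gRNA replicate 4 it was -0.61, which ended the call, and without Sox9 gRNA replicate 10 it was -2.20. None of 8 other Sox factors with enough reads was called: Sox6 held 60.6 CPM in Sox9 gRNA cells against 56.4 CPM in no gRNA cells, and Sox8 53.2 CPM against 47.1 CPM.

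Many microglia and macrophage genes were called higher with the Sox9 gRNA. Of 48 markers, all with enough reads to be considered, 27 were called higher in Sox9 gRNA cells (56.25%, beside 2.17% of all genes). None was called lower, and all 48 log2 ratios were above 0, with a median of 3.98. Summed, the 48 genes held 10551 CPM in the Sox9 gRNA pool against 386 CPM in the no gRNA pool. Per cell the sum was 214, 7975 and 38509 CPM (lowest, median, highest) in Sox9 gRNA cells and 0, 237 and 1483 CPM in no gRNA cells. In 19 of 21 Sox9 gRNA cells the sum lay above the highest no gRNA cell, and the exceptions were replicates 7 and 20, at 999 and 214 CPM. Against AG cells alone 28 markers were called higher (58.3%, beside 7.94% of all genes), and against 2AG cells alone 25 (52.1%, beside 1.09%). Without the 4 libraries low in astrocyte RNA the count was 27, and leaving out any 1 of the 43 cells gave 26 to 29.

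**Figure D1:**
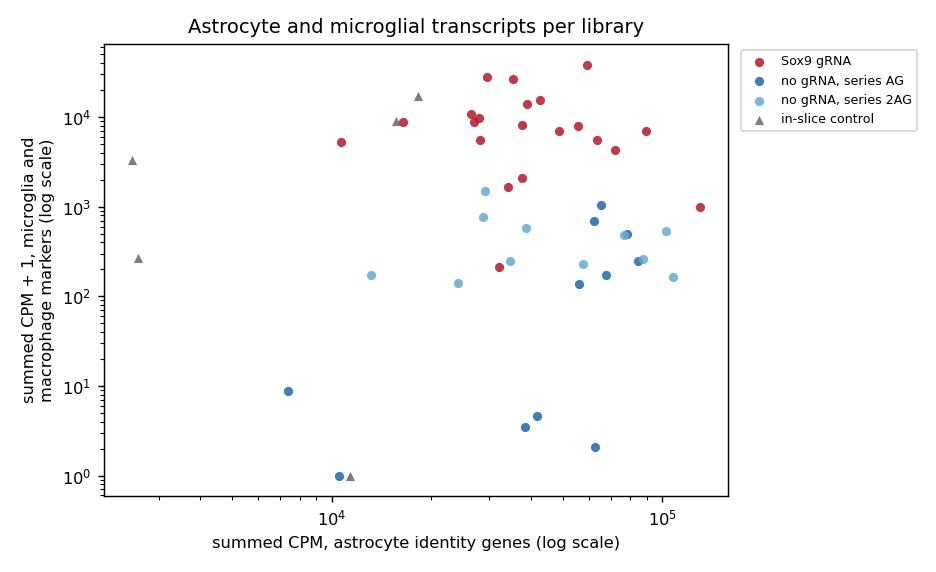
Summed CPM of 48 microglia and macrophage markers (vertical, plus 1, log scale) against summed CPM of 40 astrocyte identity genes (horizontal, log scale), 1 point per library: Sox9 gRNA cells (red), no gRNA cells of series AG (dark blue) and 2AG (light blue), and in-slice controls (grey triangles). All but 2 of 21 Sox9 gRNA cells sit above the highest no gRNA cell on the vertical axis, while the groups overlap along the horizontal one.

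The genes of C1q, the recognition protein that starts the classical complement pathway, lie side by side on chromosome 4, and all 3 were called higher. C1qb (ENSMUSG00000036905, GRCm38 chromosome 4, 136880129 to 136886187, minus strand) encodes its B chain and stood at 0, 1019 and 6157 CPM in Sox9 gRNA cells and at 0, 0 and 129 CPM in no gRNA cells. In 16 of 21 Sox9 gRNA cells the level lay above every no gRNA cell. Pooled, C1qb held 1548 CPM (1529 to 1567) with a read in 19 of 21 Sox9 gRNA cells, against 21.9 CPM (19.7 to 24.3) with a read in 6 of 22 no gRNA cells, a log2 ratio of 5.85. C1qa, the A chain, held 994 CPM in Sox9 gRNA cells against 34.2 CPM in no gRNA cells, with a log2 ratio of 4.67. C1qc, the C chain, held 906 CPM against 5.67 CPM, with a log2 ratio of 6.42. These 3 were the complement genes called, of 11 considered (27.3%, beside 2.17% of all genes). C3, C4b and the anaphylatoxin receptors C3ar1 and C5ar1 did not meet the rule and were not called, although their log2 ratios were 2.71, 2.47, 3.36 and 2.71.

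Ctss (ENSMUSG00000038642, GRCm38 chromosome 3, 95526786 to 95556403, plus strand) encodes cathepsin S, a protease that trims the invariant chain of MHC class II. It stood at 0, 861 and 9828 CPM in Sox9 gRNA cells and at 0, 0 and 196 CPM in no gRNA cells, again with 16 of 21 cells above every no gRNA cell. Pooled, it held 2127 CPM (2106 to 2149) in 20 of 21 Sox9 gRNA cells against 19.9 CPM (17.9 to 22.2) in 8 of 22 no gRNA cells, a log2 ratio of 6.42. The other lysosomal genes called higher were the proteases Lgmn, Ctsh and Ctsc and the hexosaminidase subunit Hexa, so 5 of 25 were called (20%, beside 2.17% of all genes). Without the 4 libraries low in astrocyte RNA 5 were called higher and 2 lower. Ctsd and Ctsb were read in nearly every cell of both groups, and the rule cannot call such genes. Ctsd, cathepsin D, held 2841 CPM in Sox9 gRNA cells against 474 CPM in no gRNA cells, and Ctsb, cathepsin B, 1497 CPM against 600.1 CPM.

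**Figure D2:**
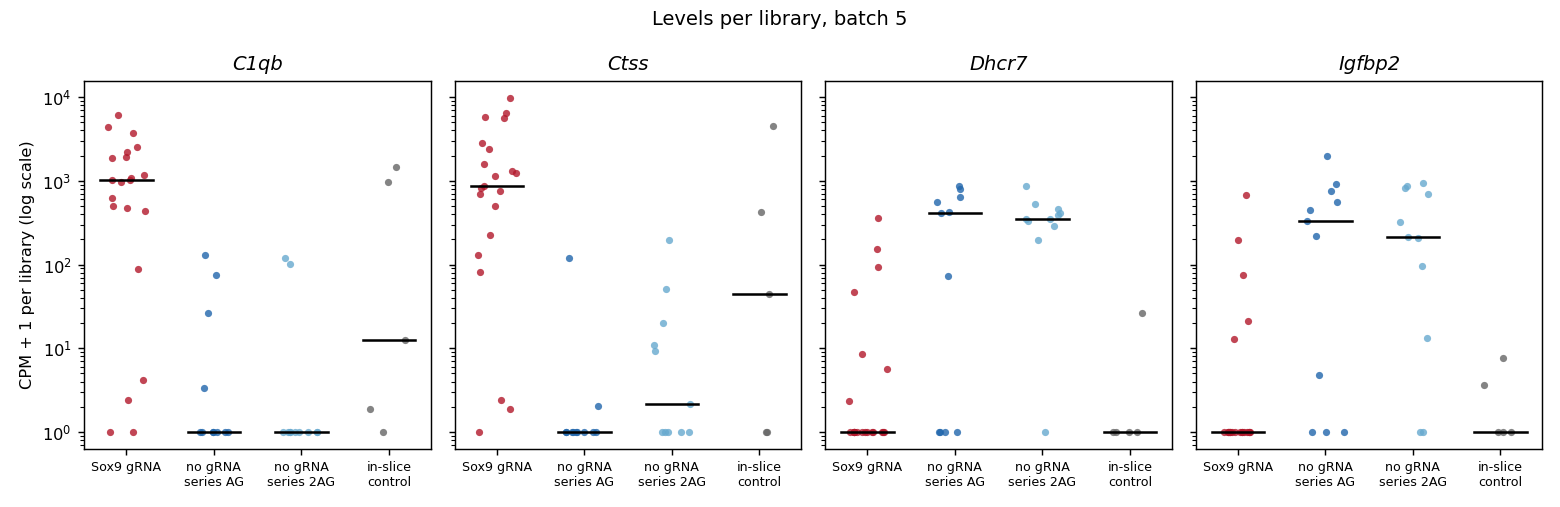
CPM + 1 (log scale) of C1qb, Ctss, Dhcr7 and Igfbp2 in each library of Sox9 gRNA cells, no gRNA cells of series AG and 2AG, and in-slice controls; black bars are medians. C1qb and Ctss have medians of 1019 and 861 CPM in Sox9 gRNA cells and 0 CPM in no gRNA cells, while Dhcr7 and Igfbp2 have medians of 0 CPM in Sox9 gRNA cells and 370 and 271 CPM in no gRNA cells.

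Promoter sequences are shown for C1qb and Ctss and for the pair of genes with the largest log2 ratio without the highest cells, C1qc and Laptm5, since each was called higher by a wide margin. They are the 250 bases before the annotated start from RefSeq (GRCm38.p6), 5′ to 3′ on the strand of the gene, and capitals mark the letters GAGGAA on either strand (TTCCTC when read on the other strand), the purine-rich core bound by PU.1, the macrophage factor encoded by Spi1.
C1qb, chr4:136886201-136886450, minus strand: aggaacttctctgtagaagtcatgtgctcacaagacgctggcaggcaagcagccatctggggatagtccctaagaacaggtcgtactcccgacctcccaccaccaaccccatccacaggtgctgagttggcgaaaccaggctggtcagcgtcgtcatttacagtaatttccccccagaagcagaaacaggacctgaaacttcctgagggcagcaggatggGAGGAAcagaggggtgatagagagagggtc
C1qc, chr4:136892915-136893164, minus strand: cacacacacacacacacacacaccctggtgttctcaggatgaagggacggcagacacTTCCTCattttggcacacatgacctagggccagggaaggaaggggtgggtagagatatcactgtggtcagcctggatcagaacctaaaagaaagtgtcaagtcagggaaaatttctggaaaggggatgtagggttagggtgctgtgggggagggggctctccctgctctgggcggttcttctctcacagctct
Ctss, chr3:95526536-95526785, plus strand: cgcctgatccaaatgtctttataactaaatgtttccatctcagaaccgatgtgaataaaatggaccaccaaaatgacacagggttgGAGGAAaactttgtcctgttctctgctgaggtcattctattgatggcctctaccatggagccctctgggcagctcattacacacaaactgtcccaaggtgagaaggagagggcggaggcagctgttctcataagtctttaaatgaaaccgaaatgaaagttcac
Laptm5, chr4:130913066-130913315, plus strand: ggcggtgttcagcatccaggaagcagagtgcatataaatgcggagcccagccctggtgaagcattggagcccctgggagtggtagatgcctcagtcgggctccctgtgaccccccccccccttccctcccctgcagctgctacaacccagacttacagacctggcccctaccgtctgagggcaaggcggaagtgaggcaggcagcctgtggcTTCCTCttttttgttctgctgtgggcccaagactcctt
Each of the 4 holds the letters once. C1qb, C1qc and Ctss are not among the 48 microglia and macrophage markers, so the count that follows leaves them out. Of the 27 markers called higher, 16 had a promoter in the RefSeq table and 7 of these held GAGGAA on either strand (43.8%), against 6986 of all 27025 genes with a promoter there (25.9%). A second string of letters that was looked for, GGAAGTG on either strand, stood in 3 of the 16 (18.8%) and in 2639 of all (9.77%). A match describes the letters and shows no binding.

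Genes of resting microglia and genes shared with other macrophages were both among the calls. Of 14 homeostatic microglial genes 8 were called higher (57.1%), and of 34 shared genes 19 (55.9%), beside 2.17% of all genes. Cx3cr1, the receptor for the neuronal chemokine fractalkine, stood at 0, 384 and 3181 CPM in Sox9 gRNA cells and at 0, 0 and 168 CPM in no gRNA cells, with 14 of 21 Sox9 gRNA cells above every no gRNA cell. Csf1r, the receptor that keeps microglia alive, held 570.4 CPM in the Sox9 gRNA pool against 26.8 CPM in the no gRNA pool. P2ry12, the purine receptor of surveying microglia, held 295 CPM against 18 CPM, and Tmem119 339 CPM against 19 CPM. Tyrobp and Trem2, an adaptor and its lipid-sensing receptor, held 555 and 386 CPM against 30.6 and 20.1 CPM. Laptm5, a lysosomal protein of blood-lineage cells, held 756 CPM in 19 of 21 Sox9 gRNA cells against 10.9 CPM in 3 of 22 no gRNA cells. Lyz2, lysozyme, held 647 CPM in 14 Sox9 gRNA cells against 0.358 CPM in 3 no gRNA cells. Cd83, an immune surface protein, held 499 CPM in 12 Sox9 gRNA cells against 2.81 CPM in 4 no gRNA cells. Unc93b1, the chaperone of endosomal Toll-like receptors, held 361 CPM in 13 Sox9 gRNA cells against 1 read in the no gRNA pool, and Olfml3 339 CPM in 12 cells against 2 reads. Spi1 itself held 123 CPM in 9 Sox9 gRNA cells against 1 read in the no gRNA pool. Cd52 had a read in 15 Sox9 gRNA cells and in none of 22 no gRNA cells, which makes it at least 665-fold higher against a floor of 3 reads in the pool. A count of 0 in 22 cells allows a share of cells with a read of up to 15.4%.

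Of 5 genes of damage-associated microglia considered, none was called, although all 5 log2 ratios were above 0, with a median of 2.51 (1.29 without the highest cells). Among them, Cst7 held 72.6 CPM in 8 Sox9 gRNA cells and no read in no gRNA cells, and it was called higher without the 4 libraries low in astrocyte RNA. Markers of border macrophages, monocytes and neutrophils were at or near 0: 7 border macrophage genes summed to 45.5 CPM in the Sox9 gRNA pool, nearly all Stab1, and 3 monocyte or neutrophil genes to 1.52 CPM. Of 5 lymphocyte genes with a row, Ighm, the immunoglobulin mu chain, was called higher, at 394 CPM in 12 Sox9 gRNA cells against 1 read in the no gRNA pool, while the 5 genes together summed to 397 CPM.

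Antigen presentation genes were called higher as well. Of 16 genes of MHC class I and its peptide supply, 6 were called higher (37.5%, beside 2.17% of all genes). None was called lower, and all 16 log2 ratios were above 0. H2-D1, a class I heavy chain, stood at 0, 544 and 3651 CPM in Sox9 gRNA cells and at 0, 0 and 91.1 CPM in no gRNA cells, with 17 of 21 Sox9 gRNA cells above every no gRNA cell. H2-K1, the other heavy chain, held 449 CPM in the Sox9 gRNA pool against 6.15 CPM in the no gRNA pool. B2m, the light chain, held 1353 CPM in 20 of 21 Sox9 gRNA cells against 55.9 CPM in 12 of 22 no gRNA cells. Psmb8 and Psmb10, subunits of the immunoproteasome, and Psme2, a part of its activator, completed the calls. Psmb10 and Psme2 were not called against 2AG cells alone, nor without the 4 libraries low in astrocyte RNA. H2-D1 and H2-K1 belong to a family of near-identical genes whose reads may not have been separated. Of 8 class II genes 1 was called higher (12.5%, beside 2.17% of all genes), the invariant chain Cd74. It held 334 CPM in 10 Sox9 gRNA cells and no read in the no gRNA pool, at least 1866-fold higher against 3 reads. The class II chains H2-Ab1 and H2-Aa held 101 CPM in 8 and 66.0 CPM in 5 Sox9 gRNA cells, with no read in no gRNA cells, and H2-Ab1 was called as well without those 4 libraries.

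Other immune lists also held calls to the higher side, beside the 2.17% of all genes called higher. Among chemokines and cytokines 3 of 15 (20%) were called higher: Il1a, Ccl4 and Ccl5. Il1a, interleukin 1 alpha, held 206 CPM in 9 Sox9 gRNA cells against 9.19 CPM in 1 no gRNA cell, and Ccl4, a chemokine, 195 CPM in 13 against 9.07 CPM in 3. Of 20 interferon-induced genes (5%) Lgals3bp alone was called, at 296 CPM against 55.7 CPM. The list of actin regulators had 3 of 14 genes (21.4%) called higher, namely Arpc1b, Pfn1 and Cyba. Cyba encodes a subunit of the phagocyte oxidase and is not itself an actin regulator. Arpc1b, a subunit of the Arp2/3 complex of blood-lineage cells, held 427 CPM in 14 Sox9 gRNA cells against 1.07 CPM in 1 no gRNA cell. Pfn1 was not called against 2AG cells alone, nor without the 4 libraries low in astrocyte RNA. Of 24 immediate early and stress genes 3 (12.5%) were called higher, Atf3, Fosb and Hspa1a, while the most abundant, Fos, held 2328 CPM in Sox9 gRNA cells against 1796 CPM in no gRNA cells and was not called. Atf3 and Fosb were not called against AG cells alone, nor Hspa1a against 2AG cells alone, and the Atf3 call was also lost without the 4 libraries.

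**Figure D3:**
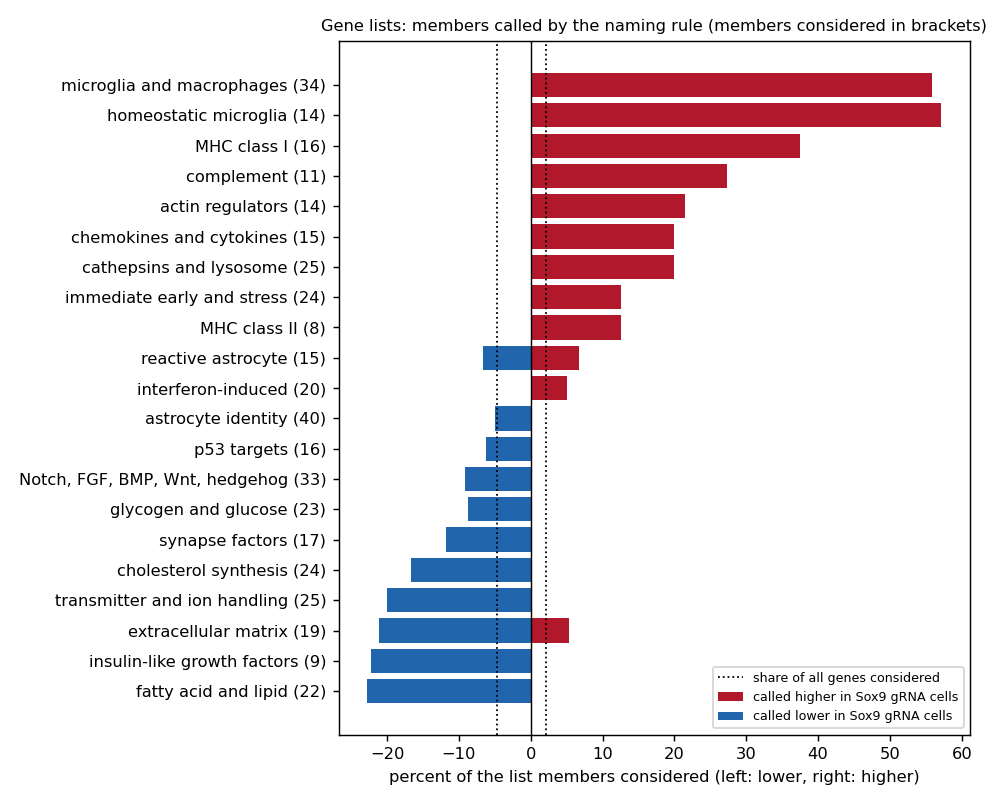
Percent of the considered members of each gene list that were called higher (red, right) or lower (blue, left) in Sox9 gRNA cells, with the number considered in brackets; dotted lines mark the shares over all 11094 genes, 2.17% higher and 4.65% lower. Microglial, MHC class I and complement lists lie to the right, and lipid, matrix, growth factor and ion handling lists to the left.

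In-slice controls, which hold no cell by their labels, carried the same transcripts to differing degrees. The 48 microglial markers summed to 17144 and 9136 CPM in the 2 in-slice controls whose titles share the prefix of the Sox9 gRNA cells (21S), and to 3284, 0 and 267 CPM in the 3 whose titles carry the Trps1 prefix (21T). Identity genes of astrocytes summed to 18290 and 15658 CPM in the 21S controls. C1qb held 966 and 1450 CPM there, and Ctss 4570 and 422 CPM. Of the 27 microglial genes called higher, 21 reached 20 CPM in the pool of the 21S controls (77.8%), against 127 of all 241 genes called higher (52.7%), 65 of 516 called lower (12.6%) and 2085 of all 11094 genes considered (18.8%). In the pool of the 21T controls the same level was reached by 7 of the 27 microglial genes (25.9%), 84 of the 241 called higher (34.9%), 212 of the 516 called lower (41.1%) and 3740 of all considered (33.7%). Leaving out every gene that reached 20 CPM in the pool of all 5 in-slice controls left 92 genes called higher, 327 lower, and 7 microglial markers higher. The genes and markers that remained to be called were not counted, so these counts have no share of all genes beside them. The part of reads like those of the in-slice controls in the result was not tested.

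Other gRNA pools carried microglial reads too. Trps1 gRNA cells of batch 5 held 7875 CPM of the 48 markers. In the same cells MHC class I genes summed to 3776 CPM, beside 3518 CPM in Sox9 gRNA cells of the batch, and class II genes to 2751 CPM beside 709 CPM. Complement genes summed to 3180 CPM beside 3740 CPM, and lysosomal genes to 10617 CPM beside 12675 CPM. In batch 3, Sox9 gRNA cells of day 7 held 11609 CPM against 532 CPM in 6 no gRNA cells. In batch 4, Sox9 gRNA cells of day 21 held 6036 CPM against 13573 CPM in control gRNA cells of day 21. H2-D1 held 613 CPM in those batch 4 Sox9 gRNA cells against 1564 CPM in the control gRNA cells, and C1qb 775 CPM against 1930 CPM. These pools differ in gRNA, batch or day and are set side by side only.

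Some genes of cholesterol and fatty acid synthesis were lower in Sox9 gRNA cells. Of 24 cholesterol genes 4 were called lower (16.7%, beside 4.65% of all genes) and none higher, and the list median log2 ratio was -0.34. Dhcr7 (ENSMUSG00000058454, GRCm38 chromosome 7, 143823145 to 143848410, plus strand) encodes the reductase that makes cholesterol in the last step of one branch of the pathway. It stood at 0, 0 and 356 CPM in Sox9 gRNA cells and at 0, 370 and 870.4 CPM in no gRNA cells, and 11 of 22 no gRNA cells lay above every Sox9 gRNA cell. Pooled, Dhcr7 held 34.0 CPM (31.3 to 36.9) in 7 of 21 Sox9 gRNA cells against 407 CPM (398 to 417) in 17 of 22 no gRNA cells, a log2 ratio of -3.40. It was -3.44 against AG cells and -3.37 against 2AG cells. After thinning each cell to 100000 reads, 4 Sox9 gRNA cells and 17 no gRNA cells held a Dhcr7 read. In batch 3 Dhcr7 held 42.9 CPM in 7 of 21 Sox9 gRNA cells of day 7 against 71.9 CPM in 3 of 6 no gRNA cells. In batch 4 none of 16 Sox9 gRNA cells of day 21 held a read, against 24.7 CPM in 5 of 15 control gRNA cells. A low Dhcr7 level was thus also seen in control gRNA cells. Those pools differ in day or in the cells set against them.

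Msmo1, a sterol demethylase, held 188 CPM in Sox9 gRNA cells against 439 CPM in no gRNA cells, with a log2 ratio of -1.20. Insig1, the sterol sensor that retains SREBP in the endoplasmic reticulum, held 56.0 CPM against 215 CPM, and Tm7sf2, a sterol reductase, 27.5 CPM against 90.1 CPM. Other enzymes of the pathway were not called: Hmgcs1 held 115 CPM in Sox9 gRNA cells against 89.1 CPM in no gRNA cells, and Sqle 99.0 CPM against 70.4 CPM. The count of 4 was 7 without the 4 libraries low in astrocyte RNA, and was 5 against AG cells alone, where 2.11% of all genes were called lower. Against 2AG cells alone it was 2 of 24 (8.33%), below the 11% of all genes called lower there. Msmo1 and Tm7sf2 were not called against 2AG cells alone, and Insig1 was called against neither title series alone.

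**Figure D4:**
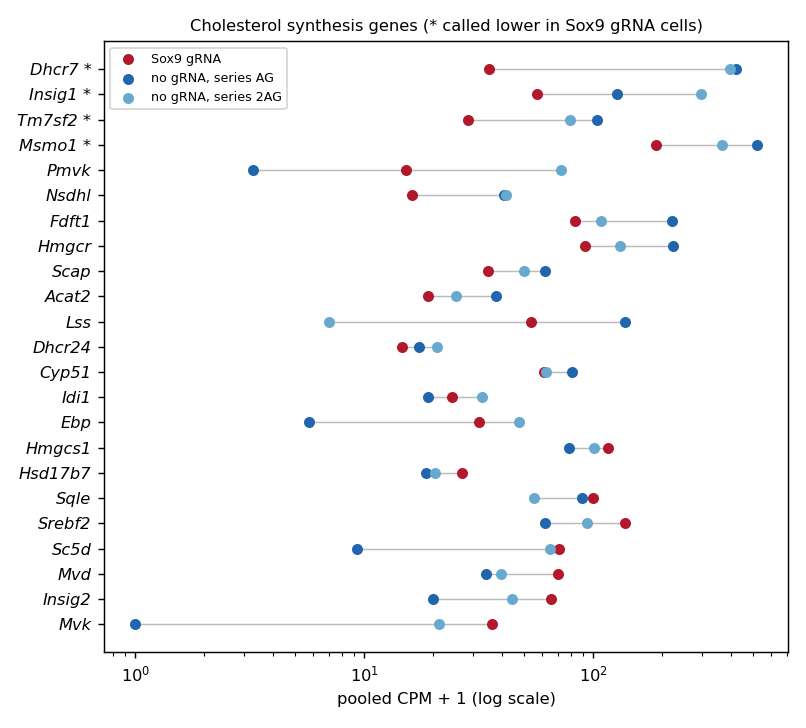
Pooled CPM + 1 (log scale) of the enzymes and regulators of cholesterol synthesis among the 24 genes considered, in Sox9 gRNA cells (red) and no gRNA cells of series AG (dark blue) and 2AG (light blue), ordered by log2 ratio with the most negative at the top; asterisks mark genes called lower. Dhcr7, at 34.0 CPM in Sox9 gRNA cells, lies far left of both no gRNA series, and genes at the foot of the plot such as Hmgcs1 and Sqle lie the other way.

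Of 22 fatty acid and lipid genes 5 were called lower (22.7%, beside 4.65% of all genes) and none higher. The list median log2 ratio was -0.83. Lcat, which esterifies cholesterol on lipoprotein particles, stood at 0, 0 and 716 CPM in Sox9 gRNA cells and at 0, 360 and 1202 CPM in no gRNA cells, with 6 no gRNA cells above every Sox9 gRNA cell. Srebf1, the transcription factor of fatty acid synthesis, held 56.4 CPM in the Sox9 gRNA pool against 187 CPM in the no gRNA pool. Fabp7, a fatty acid binding protein of glia, held 24.2 CPM against 106 CPM, and Elovl2, an elongase of long polyunsaturated fatty acids, 17.6 CPM against 93.7 CPM. Scd1, a desaturase, had reads in 1 of 21 Sox9 gRNA cells and in 13 of 22 no gRNA cells. All 5 were called lower against AG cells alone and against 2AG cells alone.

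Igfbp2 (ENSMUSG00000039323, GRCm38 chromosome 1, 72824503 to 72852474, plus strand) encodes a secreted protein that binds insulin-like growth factors. It stood at 0, 0 and 678 CPM in Sox9 gRNA cells and at 0, 271 and 1978 CPM in no gRNA cells. The groups overlapped, with 7 no gRNA cells above the highest Sox9 gRNA cell. Pooled, Igfbp2 held 49.8 CPM (46.5 to 53.2) in 5 of 21 Sox9 gRNA cells against 422 CPM (412 to 432) in 17 of 22 no gRNA cells, a log2 ratio of -2.96 that was -4.28 without the highest cells. Pooled levels in other batches ran the other way. In batch 3 Igfbp2 held 378 CPM in 8 of 21 Sox9 gRNA cells of day 7 against 119 CPM in 4 of 6 no gRNA cells. The share of cells with a read was thus lower with the gRNA there, as in batch 5. In batch 4 Igfbp2 held 112 CPM in 7 of 16 Sox9 gRNA cells of day 21 against 48.0 CPM in 5 of 15 control gRNA cells. Those pools differ in day or in the cells set against them. The insulin receptor Insr was the other gene of this list called lower, making 2 of 9 (22.2%, beside 4.65% of all genes). Against AG cells alone 2 of 9 were called lower too (22.2%, beside 2.11% of all genes). Against 2AG cells alone 1 of 8 was called lower (12.5%), near the 11% of all genes called lower there. Insr held 8.78 CPM against 49.5 CPM, and was not called against 2AG cells alone. Without the 4 libraries low in astrocyte RNA, Igfbp4 of this list was called higher.

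Calls to the lower side also fell on matrix, synapse and ion handling genes of astrocytes. Of 19 matrix genes 4 were called lower (21.1%, beside 4.65% of all genes), and the list median log2 ratio was -1.22. Prelp, a small proteoglycan, had reads in 1 Sox9 gRNA cell (7.96 CPM pooled) and in 11 no gRNA cells (137 CPM). Col16a1, a fibril-associated collagen, had 1 read in the Sox9 gRNA pool and 117 CPM in 10 no gRNA cells. Chil1, a chitinase-like protein of reactive astrocytes, held 19.5 CPM against 169 CPM, and Lama2, a laminin chain, 15.5 CPM against 55.1 CPM. Timp4, an inhibitor of matrix proteases, went the other way and was called higher, at 321 CPM in 17 Sox9 gRNA cells against 124 CPM in 12 no gRNA cells. Prelp was called lower against each title series alone. Col16a1 and Chil1 were not called against AG cells alone, Timp4 not against 2AG cells alone, and Lama2 against neither series alone nor without the 4 libraries low in astrocyte RNA.

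Of 25 transmitter and ion handling genes 5 were called lower (20%, beside 4.65% of all genes). Adora2b, an adenosine receptor, stood at 0, 0 and 364 CPM in Sox9 gRNA cells and at 0, 245 and 996 CPM in no gRNA cells, with 9 no gRNA cells above every Sox9 gRNA cell. Kcnj10, the channel that carries most of the astrocyte's potassium uptake, held 116 CPM in the Sox9 gRNA pool against 309 CPM in the no gRNA pool. The endothelin receptor Ednrb held 187 CPM against 392 CPM. Gabrg1, a GABA-A receptor subunit, and the adrenergic receptor Adra1a held 63.4 and 10.6 CPM against 149 and 61.6 CPM. Of 17 synapse factors 2 were called lower (11.8%, beside 4.65% of all genes). Against 2AG cells alone 2 of 18 were called lower (11.1%), near the 11% of all genes called lower there. Against AG cells alone 1 of 15 was called lower (6.67%, beside 2.11% of all genes). Chrdl1, which drives the maturation of glutamate synapses, had reads in 1 Sox9 gRNA cell (17 CPM pooled) and in 10 no gRNA cells (116 CPM), and Mertk, an engulfment receptor, held 58.4 CPM in 7 Sox9 gRNA cells against 308 CPM in 20 no gRNA cells. Kcnj10 and Chrdl1 were not called against AG cells alone, nor Ednrb against 2AG cells alone.

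Of 40 core identity genes 2 were called lower (5%, beside 4.65% of all genes), the zinc transporter Slc39a12 and Fjx1, the list median log2 ratio was -0.17, and the summed level was 47817 CPM in Sox9 gRNA cells against 54878 CPM in no gRNA cells. The most abundant, Apoe, stood at 1608, 7213 and 19137 CPM in Sox9 gRNA cells and at 591, 9688 and 24984 CPM in no gRNA cells, which overlapped over most of their range. Slc39a12 was called against neither title series alone, and without the 4 libraries low in astrocyte RNA 4 identity genes were called lower. The glutamate transporters Slc1a2 and Slc1a3 held 1828 and 2417 CPM against 2090.4 and 2993 CPM. Identity genes read in nearly every cell could not be called by the rule whatever their level: Mfge8, a secreted bridging protein, held 700.0 CPM in Sox9 gRNA cells against 3001 CPM in no gRNA cells, and Gpr37l1, an orphan receptor, 1562 CPM against 3549.9 CPM. Among reactive astrocyte genes, Anxa3 was called higher (201 CPM in 10 Sox9 gRNA cells, 1 read in the no gRNA pool) and Serpina3n, a protease inhibitor, lower (2.75 CPM against 97.4 CPM), the second not against AG cells alone. Gfap, the filament protein used to mark reactive astrocytes, was not called, at 314 CPM in 12 Sox9 gRNA cells against 189 CPM in 10 no gRNA cells.

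The remaining lists gave 0 to 3 calls each, beside 2.17% of all genes called higher and 4.65% lower. Of 33 signalling genes 3 were called lower (9.09%). They were Notch1, a receptor, Ptch1, the hedgehog receptor, and Etv4, an FGF-induced factor. Notch1 was not called against 2AG cells alone, nor Etv4 against AG cells alone. Against 2AG cells alone 3 of 33 signalling genes were called lower (9.09%), below the 11% of all genes called lower there, and 1 higher (3.03%, beside 1.09%). Per1, a clock gene, was called lower, at 196 CPM against 502 CPM, with 824 CPM in AG cells and 209 CPM in 2AG cells, and was not called against 2AG cells alone. Bhlhe41, a clock repressor, was called higher, at 123 CPM against 43.2 CPM, but not against 2AG cells alone nor without the 4 libraries low in astrocyte RNA. The glucose transporter Slc2a1 held 150.4 CPM against 346 CPM, and Ppp1r3g, a glycogen-targeting subunit of protein phosphatase, 8.96 CPM against 110.2 CPM, and both were called lower. Ppp1r3g was not called against AG cells alone, and Slc2a1 against neither series alone. Sesn1, a p53 target, and Fezf2, a transcription factor of cortical projection neurons, were the only calls in their lists, both lower. Sesn1 was not called against AG cells alone, at 6.32 CPM in Sox9 gRNA cells against 7.90 CPM in AG cells, and Fezf2 against neither series alone. Without the 4 libraries low in astrocyte RNA Otx1, of the list that holds Fezf2, was called lower too. Cell cycle genes (7 considered), a list of engulfment genes that leaves out Mertk (12) and oligodendrocyte progenitor genes (7) had no call. Neuronal genes had 2 of 17 called lower (11.8%), Sst and Tubb3. Against 2AG cells alone 7 of 18 were called lower (38.9%, beside 11% of all genes), and against AG cells alone none of 14. Summed, neuronal genes held 3595 CPM in Sox9 gRNA cells, 2500 CPM in AG cells and 6017 CPM in 2AG cells. The log2 ratio of Tubb3 turned to 0.37 against AG cells alone. The Sst call was lost against AG cells alone and without the 4 libraries. Of 2 haemoglobin genes considered Hba-a1 was called lower, although reads of its near-identical copy may not have been separated.

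Genes that mark sex differed with the title series. Xist, the RNA that silences an X chromosome in female cells, had reads in 11 of 11 2AG cells, at 274 CPM pooled, in 1 of 11 AG cells and in 2 of 21 Sox9 gRNA cells, at 0.585 CPM. It was among the 12 genes called lower with the largest ratios, and its log2 ratio was 0.09 against AG cells alone. The Y-linked translation factor Eif2s3y held 114 CPM in Sox9 gRNA cells, 109 CPM in AG cells and 0.114 CPM in 2AG cells, and was called higher, but not against AG cells alone nor without the 4 libraries low in astrocyte RNA. Sex, title series and gRNA therefore cannot be told apart against 2AG cells. Cwc22, a splicing factor in a segment of chromosome 2 whose copy number varies between mouse strains, stood at 0, 0 and 213 CPM in Sox9 gRNA cells and at 0, 252 and 731 CPM in no gRNA cells. It had a read in 4 of 21 Sox9 gRNA cells and in 10 of 11 cells of each no gRNA series, and 13 no gRNA cells lay above every Sox9 gRNA cell. In the Trps1 gRNA pool of the batch it held 14.3 CPM, in batch 3 it held 17.1 CPM in Sox9 gRNA cells of day 7 against 3.64 CPM in no gRNA cells, and in batch 4 4.86 CPM in Sox9 gRNA cells against 3.08 CPM in control gRNA cells. Its link to strain or animal was not tested. The other genes called lower with the largest ratios and in no list were Cmtm5, at 39.2 CPM in 3 Sox9 gRNA cells against 233 CPM in 15 no gRNA cells, and Uckl1, a uridine kinase, at 4.10 CPM in 1 cell against 89.4 CPM in 10.

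**Figure D5:**
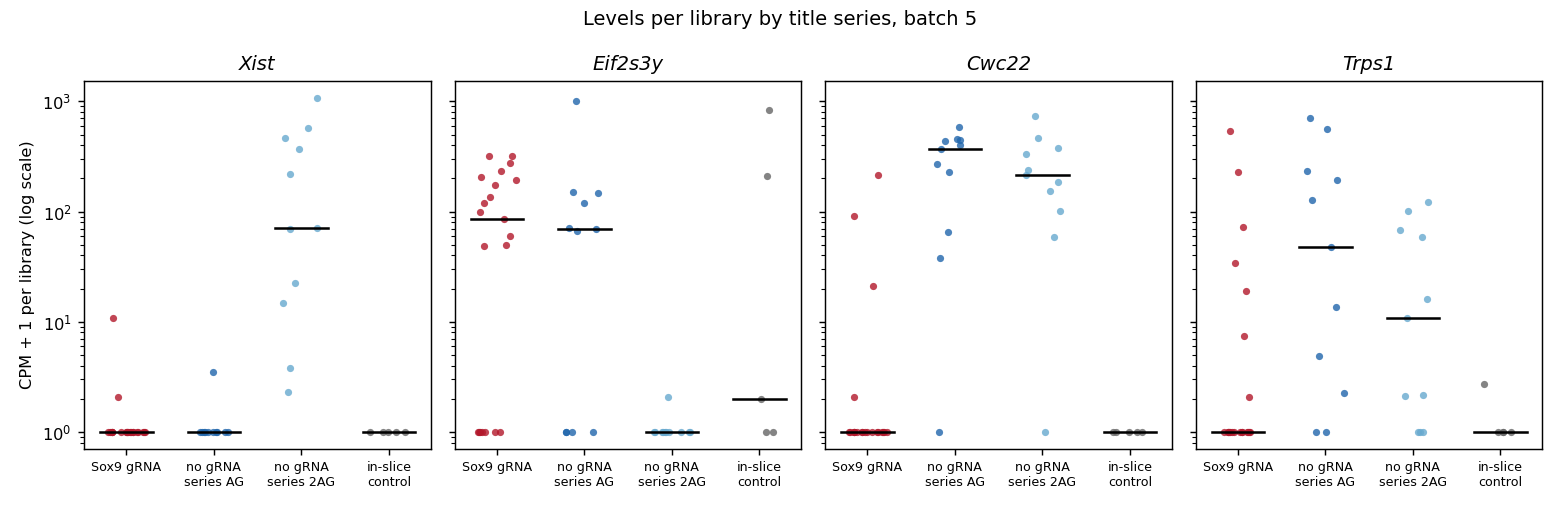
CPM + 1 (log scale) of Xist, Eif2s3y, Cwc22 and Trps1 in each library of Sox9 gRNA cells, no gRNA cells of series AG and 2AG, and in-slice controls; black bars are medians. Xist is read in all 11 cells of series 2AG and Eif2s3y chiefly in Sox9 gRNA and AG cells, while Cwc22 is read in 10 of 11 cells of each no gRNA series and in 4 of 21 Sox9 gRNA cells.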

How the data were processed

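Smart-seq2 libraries of single astrocytes were used as counts of reads per gene, which the authors deposited in 1 table per batch; batch 5 was analysed, with batches 3 and 4 only for values set side by side. Another 17 per-sample columns of the batch 3 table, the dual-gRNA cells and their controls, were not used. The deposited counts were whole numbers with differing totals. Per the submitters' processing notes, the tools were STAR 2.6.0a and RSEM 1.3.0 and the builds GRCm38 and mm10; what each did is not stated. No source used here states how strand, or reads that fit more than 1 gene, were handled. Whether reads of overlapping and of near-identical genes were separated is therefore not known. Rows naming no gene (DsRed, GFP, Lmo4_OE; 0.209% of counts) stayed out of totals. Of 27849 gene rows 27786 had a symbol in the supplied name table.

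The members and all gene lists were chosen with earlier results of these data known. No gRNA replicates 10 and 14 differed far less than other pairs (Pearson r over genes 0.989, chi-square per gene 1.72, against at most 0.644 and at least 28.7 in 462 other pairs) and their mean was counted as 1 cell. The pair still differed by more than sampling noise alone.

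Counts were summed per pool and given as CPM. Log2 ratios add 5 CPM to each pool, which draws ratios of low genes towards 0, and setting pools at 0 to a floor of 3 reads (0.176 CPM in the Sox9 gRNA pool, 0.179 CPM in the no gRNA pool) moved no list median by more than 0.051. Reads without molecular identifiers are not independent molecules. Thinning drew 100000 reads per cell with a fixed seed, and no cell was shallower. Named genes were Sox9, Trps1, C1qb, Ctss, Dhcr7, Igfbp2, the 12 called each way with the largest log2 ratio without the highest cells, and up to 8 of the most abundant members of each list; a few of these are not reported here, and further called members of a list were named after their values were seen. The calling code was checked on simulated data. Alternatives were other scalings, pseudocounts, title series, in-slice filters and each cell left out. Coordinates are from GENCODE M21 (GRCm38). Python 3.11.15, numpy 2.4.6, pandas 2.3.3, scipy 1.17.1 and matplotlib 3.10.9 were used.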

Additional observations from a re-analysis of the deposited data

Results flagged for a closer look

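Among the 5 in-slice controls of batch 5, 1 library was marked in each of 5 measures. The mark was for a gap to the nearest other library that was large beside the range. DsRed reads numbered 492 in 1 control, next to 11 in the nearest other, both of the 21S titles. Oligodendrocyte genes summed to 3546 CPM in that same library, next to 791 CPM. Ctss held 4570 CPM in the other 21S control, next to 422 CPM. Trps1 held 1.73 CPM and Dhcr7 25.1 CPM in 1 and the same control of the 21T titles, with 0 in the other 4. The cut used marks about 1 in 20 groups of normally spread values, and these values, with many at 0, are not so spread. A library with a read among 4 at 0 always passes it, as for Trps1 and Dhcr7. Many measures were looked at.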

How the results depend on the processing

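No paired analysis was possible because replicate numbers follow accession order and pair no cells. Against AG cells alone the counts became 824 higher and 219 lower, with log2 ratios of -0.15 for Sox9, -1.92 for Trps1, 0.37 for Tubb3 and 0.089 for Xist. Against 2AG cells alone they became 123 higher, 1239 lower and 2 cholesterol genes lower, with -0.58 for Sox9 and 0.15 for Trps1. Leaving out genes at 20 CPM in the pool of the in-slice controls gave 92 higher, 327 lower, 7 microglial markers and 2 cholesterol genes, counts without a share beside them. A pseudocount of 20 gave 283 lower and -0.96 for Trps1. Without the highest cell of each pool the cholesterol count was 7, as without the 4 libraries low in astrocyte RNA (chosen after seeing the data), and Trps1 was at -1.62. Sox9 was at -0.50 on the mean of per-cell CPM and -0.47 with median-ratio scaling, which shifted the median of all genes by -0.08. The causes were not tested. Leaving out 1 cell at a time gave 178 to 303 higher, 398 to 644 lower, 26 to 29 microglial markers, 3 to 6 cholesterol genes, -0.60 to -0.17 for Sox9 and -2.20 to -0.61 for Trps1. Keeping both near-copy libraries gave 225 higher and 475 lower. For the shares of cells with a read, 608 of 757 calls kept their difference after thinning. Groups of 1 pool, unnamed animals and reads without molecular identifiers limit every value to a description of these libraries.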

Other observations

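Ribosomal protein genes were called only to the higher side in Sox9 gRNA cells. The 83 genes summed to 17264 CPM in the Sox9 gRNA pool against 7249 CPM in the no gRNA pool, and per cell to 5324, 16856 and 34789 CPM (lowest, median, highest) in Sox9 gRNA cells against 1783, 6427 and 13386 CPM in no gRNA cells. Of 78 considered, 11 were called higher (14.1%, beside 2.17% of all genes) and none lower. Against AG cells alone (4698 CPM) 36 were called higher (46.2%, beside 7.94%), and against 2AG cells alone (9566 CPM) 1 (1.28%, beside 1.09%). Without the 4 libraries low in astrocyte RNA 7 were called higher (8.97%, beside 1.79%). In-slice controls held 34699 and 32705 CPM under the 21S titles and 10407, 11594 and 16330 CPM under the 21T titles. Calls of nuclear genes of oxidative phosphorylation varied with the title series. Of 76 considered, 17 were called higher against AG cells alone (22.4%, beside 7.94% of all genes). Against 2AG cells alone 13 were called lower (17.1%, beside 11% of all genes). The median log2 ratio over all genes was 0.61 against AG cells alone and -0.09 against 2AG cells alone. Against both series together 1 of the 76 was called lower (1.32%, beside 4.65%), and 3 without the 4 libraries (3.95%, beside 6.23%). The genes of oxidative phosphorylation summed to 11298 CPM in Sox9 gRNA cells, 8083 CPM in AG cells and 18102 CPM in 2AG cells.

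Oligodendrocyte genes were high in 1 Sox9 gRNA library. The 12 genes summed to 5099 CPM in the Sox9 gRNA pool against 2521 CPM in the no gRNA pool, and to 66974 CPM in Sox9 gRNA replicate 6. Their median log2 ratio was 2.98, and -0.10 without the highest cell of each pool for each gene, and none of them was called.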
